A study of Mus musculus with 8 samples.

Results

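The kinesin motor genes were taken as every gene of the deposited table whose symbol begins with Kif followed by a digit or the letter c. This gave 46 of the 34945 named genes. They were divided by textbook role into 14 mitotic kinesins, 15 kinesins that carry cargo (transport kinesins) and 17 others, the last made up of ciliary, neuronal and other motors and pseudogene entries. The cells were AML12, an established mouse hepatocyte line derived from a mouse carrying a human TGF-alpha transgene, labelled as wild type. The comparison was between 4 libraries from cultures given a scrambled control siRNA (Scr) and 4 from cultures given siRNAs against Casp8 (siCasp8). All 8 cultures received lipid transfection with 40 nM siRNA and were collected 48 h later, and the design text calls the cultures of a group biological replicates. Casp8 encodes the initiator protease of death receptor signalling, and transfection lowered its transcript without deleting the gene.

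Kinesins are motor proteins that use ATP to move along microtubules or to take their ends apart. One set builds the spindle, moves chromosomes and closes the cell in cytokinesis, and its genes are mostly transcribed late in the cell cycle. Another set carries vesicles, mitochondria and ciliary cargo through cells that need not be dividing, often with light chains and adaptor proteins.

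Values are the deposited normalized signal per gene, and a fold change is the difference siCasp8 minus Scr of log2(value + 1). Calls come from limma's moderated test at an adjusted p under 0.05, over the 14154 genes whose mean value reached 10. Estimated depth was 30.7 to 51.8 M reads in the Scr libraries and 50.3 to 56.8 M in the siCasp8 libraries. Casp8 was 3936, 3995, 4134 and 3825 in Scr replicates 1 to 4 and 1374, 1431, 1627 and 1490 in siCasp8 replicates 1 to 4. The siCasp8 libraries thus held 37.3% of the Scr mean, with no overlap. Of the 9 hepatocyte markers, 5 were higher in siCasp8 and 2 lower, and their summed level was 65813 to 71164 in Scr and 82199 to 84902 in siCasp8. The defining hepatocyte transcript Alb lay between 70.5 and 94.4 in Scr and between 3380 and 3948 in siCasp8. Of the 6 cholangiocyte markers 5 were tested, with 2 higher, 2 lower and 1 not called, and Epcam was at 0 in all 4 Scr libraries. The cholangiocyte list summed to 102415 to 111592 in Scr and 118267 to 125969 in siCasp8, above the sums of the hepatocyte list. Of the 6 macrophage markers, Adgre1, Clec4f and Cd5l were listed at 0 in all 8 libraries, Csf1r was lower in siCasp8 (569 ± 30.1 in Scr, 347 ± 29.4 in siCasp8), and Cd68 and Ptprc were not called. The macrophage list summed to 779 to 848 in Scr and 578 to 654 in siCasp8. Of the 6 endothelial markers, Cdh5 and Lyve1 were listed at 0 in all 8 libraries and Pecam1, the only 1 tested, was not called, with list sums of 186 to 536 in Scr and 178 to 301 in siCasp8. Of the 6 stellate markers 2 were tested, with Des higher (12.1 ± 8.24 and 45.3 ± 22.6) and Col1a1 lower (117 ± 22.2 and 77.9 ± 23.9), and the list summed to 115 to 171 in Scr and 96.1 to 170 in siCasp8. The part of these differences in the kinesin results was not tested.

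Mitotic kinesins were lower after silencing of Casp8, while transport kinesins went both ways. All 13 tested mitotic kinesins were lower in siCasp8, to between 44.1% and 68.0% of the Scr mean, and in each of the 13 every siCasp8 library lay below every Scr library. Of the 14 tested transport kinesins, 4 were lower, 4 were higher and 6 were not called, and none changed by more than 0.43 on the log2 scale among those called. The median log2 fold change was -0.95 over the mitotic kinesins and -0.04 over the transport kinesins, beside 0.00252 over all genes tested. Among all genes tested, 40.2% were called, 20.8% as lower and 19.4% as higher, and 19.5% were lower and 18% higher without overlap between the groups. A log2 fold change below -0.5 was found in 5.82% of all tested genes and in 13 of 13 mitotic kinesins, and one below -1 in 1.18% of all tested genes and in 6 of 13 mitotic kinesins. In RNA from whole cultures, fewer cells in a given state and less RNA per cell cannot be told apart.

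**Figure D1:**
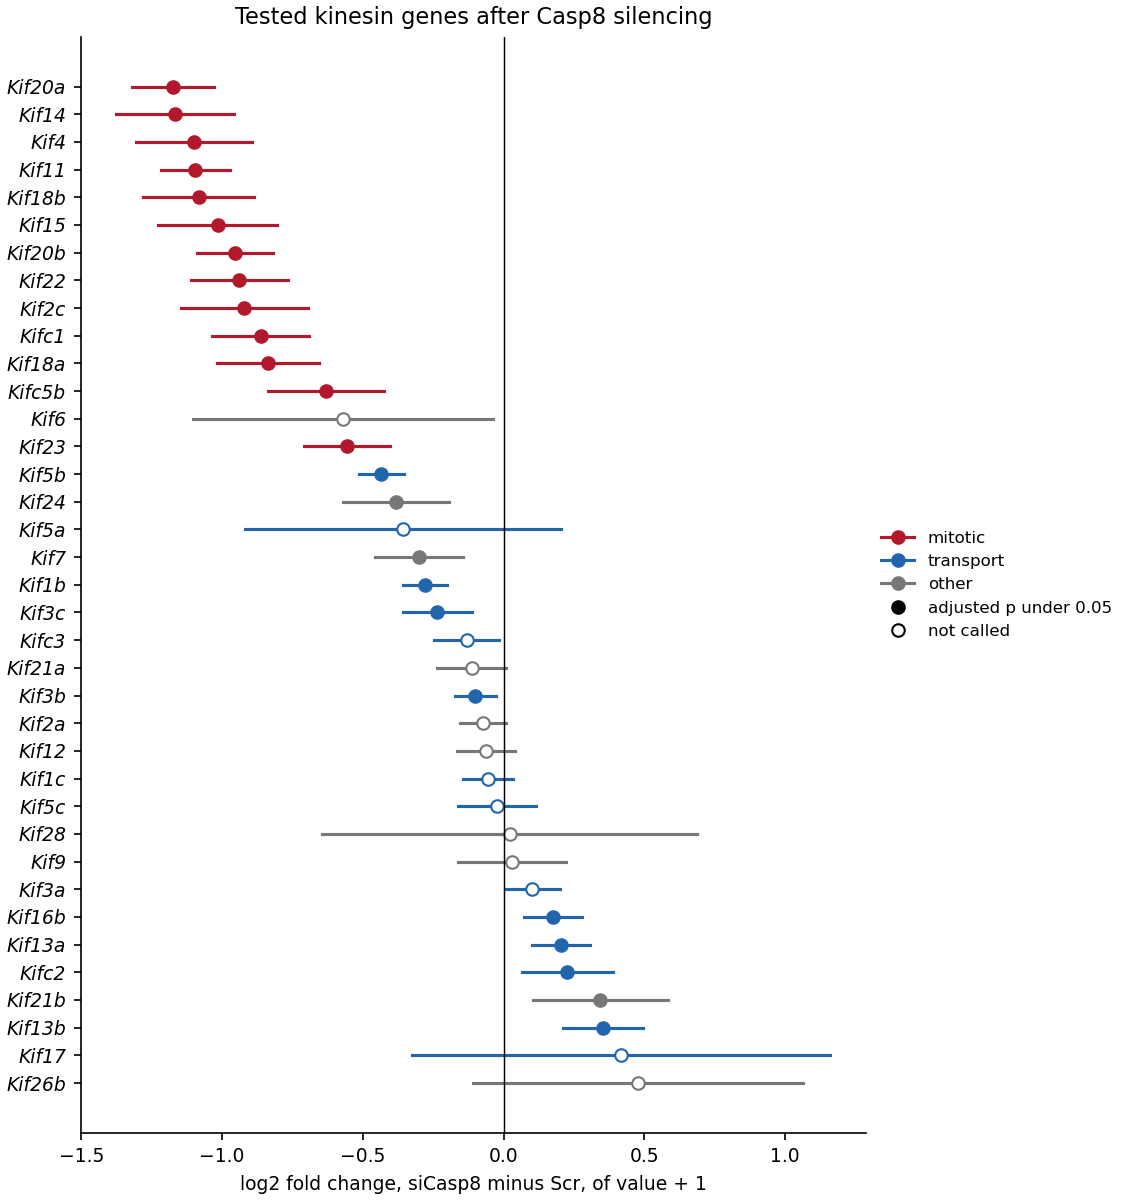
Log2 fold change (siCasp8 minus Scr, of value + 1) of the 37 tested kinesin genes with 95% intervals from limma, coloured by class, filled where the adjusted p is under 0.05. The 13 mitotic genes lie between -1.18 and -0.56, while the 8 called transport genes lie between -0.43 and 0.35.

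Of the 46 kinesin rows, 41 had a value above 0 in at least 1 library, and 37 passed the filter on the mean. The 5 rows listed at 0 in all 8 libraries were Kif2b, Kif27 and the pseudogene entries Kif22-ps, Kif4-ps and Kifc5c-ps. Kif1a, Kif19a, Kif19b and Kif26a had means under 10 and were not tested. Kif2b, whose protein acts at mitotic centromeres, was the only mitotic member without a value.

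Promoter sequence was looked at because the mitotic members moved together. RefSeq promoter windows (GRCm38.p6, from 250 bases before to 50 bases after a gene's start) matched 29 of the 37 tested kinesins. Sets of letters were searched on both strands: TTTGAA or TTCGAA, the core of the cell cycle homology region (CHR) known from late cell cycle promoters, CCAAT, the letters bound by NF-Y, and TTTGGCGC or TTTCGCGC, which resemble E2F sites. In the kinesin windows no match overlapped another. The windows of the 4 mitotic kinesins with the smallest adjusted p among those matched are shown with that of Kif1b, a transport kinesin that was also lower, for contrast. Each run is 5′ to 3′ on the gene's strand from 250 bases before the RefSeq start to 30 bases after it, and capitals mark CHR, CCAAT and E2F letters on either strand.
Kif11, chr19:37376132-37376411, plus strand: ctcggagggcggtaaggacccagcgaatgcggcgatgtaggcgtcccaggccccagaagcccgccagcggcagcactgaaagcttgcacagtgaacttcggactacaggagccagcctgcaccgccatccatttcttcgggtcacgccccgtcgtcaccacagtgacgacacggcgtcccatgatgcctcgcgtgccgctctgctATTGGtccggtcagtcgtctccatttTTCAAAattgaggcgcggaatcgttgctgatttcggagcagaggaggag
Kif20b, chr19:34922108-34922387, plus strand: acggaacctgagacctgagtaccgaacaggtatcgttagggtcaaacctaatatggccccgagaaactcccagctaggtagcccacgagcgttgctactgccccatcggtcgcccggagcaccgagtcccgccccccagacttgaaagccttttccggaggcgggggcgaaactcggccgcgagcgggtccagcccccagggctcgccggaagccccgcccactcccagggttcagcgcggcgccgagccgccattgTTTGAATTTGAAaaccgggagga
Kif14, chr1:136467598-136467877, plus strand: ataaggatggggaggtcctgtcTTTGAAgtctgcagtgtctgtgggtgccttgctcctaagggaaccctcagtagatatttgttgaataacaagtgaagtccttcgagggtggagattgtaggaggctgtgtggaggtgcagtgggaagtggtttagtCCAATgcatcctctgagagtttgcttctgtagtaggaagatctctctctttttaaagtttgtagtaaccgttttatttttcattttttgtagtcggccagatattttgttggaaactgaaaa
Kif18b, chr11:102925095-102925374, minus strand: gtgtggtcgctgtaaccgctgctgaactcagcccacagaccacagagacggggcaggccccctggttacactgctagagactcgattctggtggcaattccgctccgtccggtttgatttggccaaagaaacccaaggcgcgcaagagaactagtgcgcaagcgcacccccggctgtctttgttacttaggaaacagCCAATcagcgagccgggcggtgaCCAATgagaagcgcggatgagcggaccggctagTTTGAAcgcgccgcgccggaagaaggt
Kif1b, chr4:149307669-149307948, minus strand: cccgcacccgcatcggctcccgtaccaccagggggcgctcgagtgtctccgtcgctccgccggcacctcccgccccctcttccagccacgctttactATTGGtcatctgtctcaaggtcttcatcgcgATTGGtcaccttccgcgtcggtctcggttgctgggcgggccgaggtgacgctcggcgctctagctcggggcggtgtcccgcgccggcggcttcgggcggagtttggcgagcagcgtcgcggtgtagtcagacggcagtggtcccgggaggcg

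Positions are counted from the start as 1, with no position 0, and ATTGG and TTCAAA are the other-strand forms of the CCAAT and CHR letters. Kif11 had ATTGG at -45 and TTCAAA at -19. Kif18b had CCAAT at -53 and -30 and TTTGAA at 4. Kif20b had a tandem pair of TTTGAA at 8 and 14 and no CCAAT. Kif14 carried TTTGAA at -228 and CCAAT at -92, and its RefSeq start lies inside the GENCODE gene, which spans chromosome 1 from 136466343 to 136531511. Kif1b had 2 ATTGG and no CHR letters in the window shown or in its other, overlapping RefSeq window.

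CHR letters were in the windows of 11 of the 12 mitotic kinesins matched, the exception being Kif18a, whose window held E2F letters at -10. Kif20a, the mitotic kinesin with the largest fall, had no matched window and is not in these counts. By contrast, 0 of the 9 tested transport kinesins matched had CHR letters, although the window of Kif1a, a transport kinesin below the filter, did hold TTTGAA. Among the 8 other kinesins matched, Kif24 and Kif26b had them. CHR letters were in 19.2% of all 32851 promoter windows and in 14.6% of the windows of tested genes. Within 50 bases of the start, a distance chosen after the positions were seen, they were in 9 of the 12 mitotic kinesins and in 5.31% of all windows. CCAAT letters were in 8 of the 12 mitotic kinesins, in 3 of the 9 transport kinesins and in 37.4% of all windows. The same 8 mitotic kinesins held both kinds, which 7.52% of all windows did. E2F letters were in Kif15 and Kif18a, and in 0.813% of all windows. Counted by gene, as for the kinesins, CHR letters were in 17.2% of the 10639 tested genes with a window, and in 4.53% within 50 bases. On that count CCAAT letters were in 43.5%, both kinds in 7.30% and E2F letters in 1.71%. All of these are matches of letters in a fixed window, and binding was not measured. As for Kif14, the RefSeq start of Kif2c, which had TTCAAA at -103, lies inside the GENCODE gene, here chromosome 4 from 117159639 to 117182639. The window of Kif4 begins at 100625815 on chromosome X, inside a GENCODE gene that starts at 100625737. That of the transport kinesin Kif17 begins at 138262001 on chromosome 4, inside a gene that starts at 138250435. Kif4 is among the 9 mitotic kinesins with CHR letters near the start, and Kif17 among the 9 transport kinesins. The counts of mitotic kinesins also include both Kifc1 and Kifc5b, near-identical copies with windows of similar sequence, so these are not separate occurrences.

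**Figure D2:**
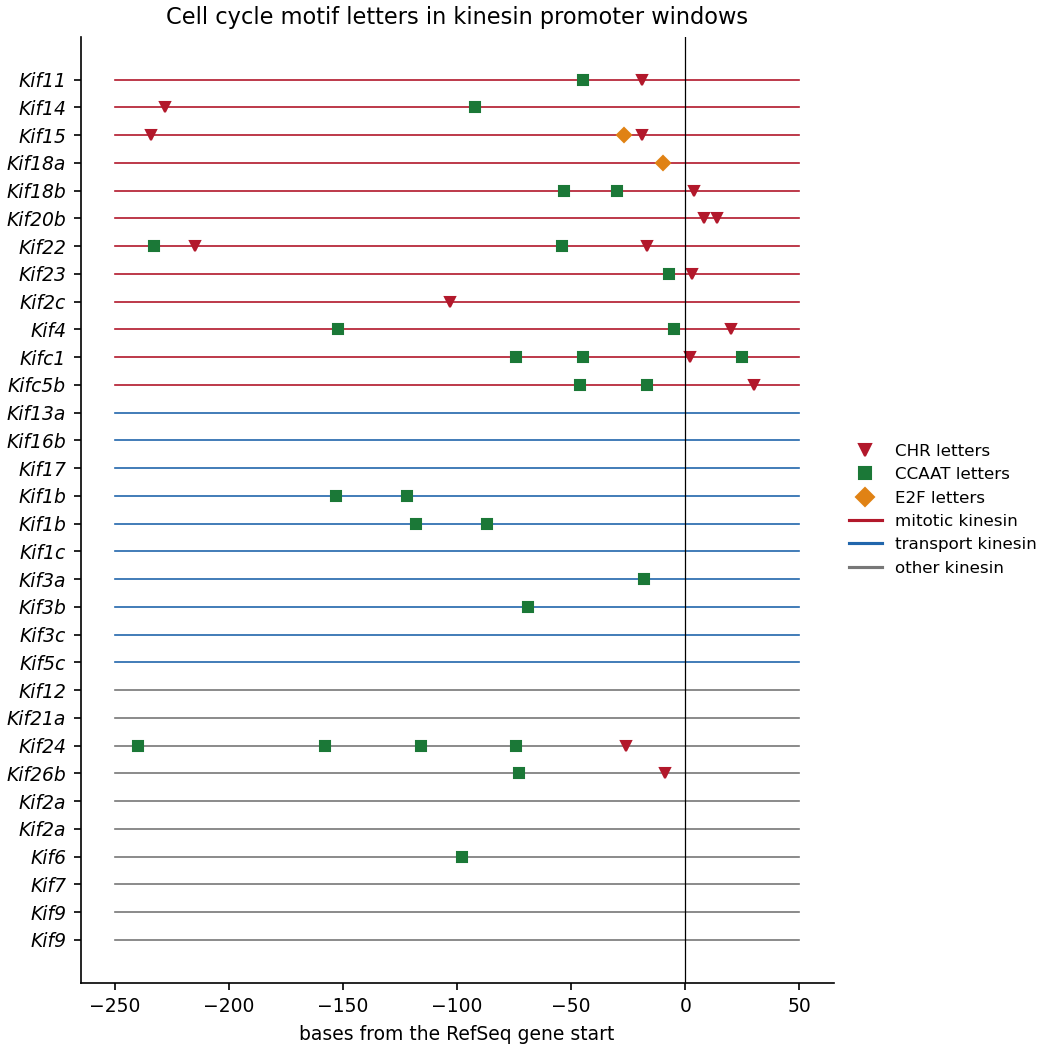
Positions of CHR, CCAAT and E2F letters in the RefSeq promoter windows of tested kinesins, as bases from the RefSeq gene start, with 1 line per window coloured by class. CHR letters (triangles) are in 11 of the 12 mitotic kinesins matched, clustered near the start in 9 of them, and in 0 of the 9 transport kinesins. Kif20a had no matched window and is not shown.

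The motors that push the spindle poles apart were lower in every siCasp8 library. Kif11 (Eg5, kinesin-5 family), the crosslinker that slides antiparallel microtubules to make a bipolar spindle, was 1967, 1708, 1831 and 1810 in Scr and 882, 797, 877 and 865 in siCasp8. Every siCasp8 library lay far below the lowest Scr library, replicate 2. The log2 fold change of Kif11 was -1.09 (SE 0.0558, adjusted p = 4.18e-08). Kif15 (kinesin-12 family), which can stand in for Kif11 in holding the spindle open, was 927, 838, 1058 and 855 in Scr and 428, 391, 514 and 486 in siCasp8. Scr replicate 3 was the highest here, and the groups did not overlap (log2 fold change -1.02, SE 0.0972, adjusted p = 5.29e-06).

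The chromosome-associated motors fell by similar amounts. Kif4 (kinesin-4 family), a chromokinesin that also sets the length of the midzone with Prc1, was 1104, 785, 847 and 839 in Scr and 413, 391, 432 and 417 in siCasp8. Scr replicate 1 stood above the other Scr libraries, and the siCasp8 libraries were close to each other (log2 fold change -1.10, SE 0.0951, adjusted p = 2.36e-06). Kif22 (Kid, kinesin-10 family), which pushes chromosome arms towards the spindle equator, was 1316, 1039, 1182 and 1209 in Scr and 570, 603, 611 and 687 in siCasp8. All siCasp8 values were lower, with a log2 fold change of -0.94 (SE 0.0786, adjusted p = 1.82e-06). For Kif4, 14.6% of the 31-base words of its GENCODE M21 transcripts are also in transcripts of Pdzd11, a gene on the opposite strand with 832 overlapping exon bases. The sources used here do not say whether counting used strand, so reads of such partners cannot be told apart.

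Motors that shorten or cap microtubule plus ends were lower too. Kif2c (MCAK, kinesin-13 family), the centromere depolymerase that helps correct wrong attachments, was 678, 586, 528 and 621 in Scr and 332, 262, 326 and 354 in siCasp8. Every siCasp8 value was under the lowest Scr value (log2 fold change -0.92, SE 0.104, adjusted p = 2.03e-05). Kif18a (kinesin-8 family), which dampens chromosome oscillations at the metaphase plate, was 487, 394, 456 and 418 in Scr and 238, 248, 240 and 252 in siCasp8. The spread among the siCasp8 libraries was small, with an SD of 6.49 against 41.1 in Scr, and the log2 fold change was -0.84 (SE 0.0830, adjusted p = 7.05e-06). Its relative Kif18b, which regulates astral microtubules, was 818, 671, 606 and 648 in Scr and 331, 330, 299 and 325 in siCasp8. Here too the groups stood apart, with a log2 fold change of -1.08 (SE 0.0907, adjusted p = 1.82e-06).

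The cytokinesis motors held both the largest and the smallest fall among the mitotic kinesins. Kif20a (MKLP2, kinesin-6 family), which brings the Aurora B complex to the central spindle, was 2908, 2441, 2306 and 2331 in Scr and 1106, 1067, 1121 and 1106 in siCasp8. The siCasp8 libraries kept 44.1% of the Scr mean, the lowest share among the 13, with a log2 fold change of -1.18 (SE 0.0670, adjusted p = 9.35e-08). Kif23 (MKLP1, kinesin-6 family), the motor of centralspindlin, was 4293, 3600, 4071 and 3682 in Scr and 2672, 2376, 2960 and 2636 in siCasp8. It kept 68.0% of the Scr mean, the highest share among the 13, and the groups still did not overlap (log2 fold change -0.56, SE 0.0698, adjusted p = 4.99e-05). Of the 31-base words of Kif20a, 26.7% are shared with Cdc23 on the opposite strand, with 1271 overlapping exon bases. How far reads of Cdc23 enter the value of Kif20a cannot be told, as use of strand is not stated.

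The remaining midzone and late mitotic motors lay between these. Kif20b (kinesin-6 family), which acts in the final stages of cytokinesis, was 3116, 2752, 2961 and 3067 in Scr and 1477, 1516, 1733 and 1423 in siCasp8. The highest siCasp8 library, replicate 3, lay well below the lowest Scr library, replicate 2, and the log2 fold change was -0.95 (SE 0.0625, adjusted p = 2.76e-07). Kif14 (kinesin-3 family), which works with citron kinase at the midbody, was 799, 585, 689 and 773 in Scr and 340, 306, 303 and 308 in siCasp8. Its log2 fold change was -1.17 (SE 0.0958, adjusted p = 1.55e-06), and siCasp8 replicate 1 stood above the other 3 siCasp8 libraries while lying below every Scr library.

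The minus-end directed motor Kifc1 (HSET, kinesin-14 family), which focuses spindle poles and clusters extra centrosomes, was 749, 652, 638 and 688 in Scr and 403, 382, 333 and 380 in siCasp8. Its near-identical copy Kifc5b was 404, 344, 351 and 399 in Scr and 271, 249, 222 and 224 in siCasp8. Both were called lower, Kifc1 at -0.86 (SE 0.0787, adjusted p = 3.54e-06) and Kifc5b at -0.63 (SE 0.0944, adjusted p = 0.000195). Because 53.2% of the 31-base words of Kifc1 are shared with Kifc5b, and 49.9% of those of Kifc5b with Kifc1, the split of reads between them is uncertain. Their sum does not depend on that split: the Scr mean was 1056 ± 78.9 and the siCasp8 mean 616 ± 49.9 (SD, n = 4 each), or 58.3% (exact two-sided permutation p = 0.0286, the smallest that 4 against 4 libraries allow). In each copy every siCasp8 library already lay below every Scr library, so that p was fixed beforehand and adds no support.

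**Figure D3:**
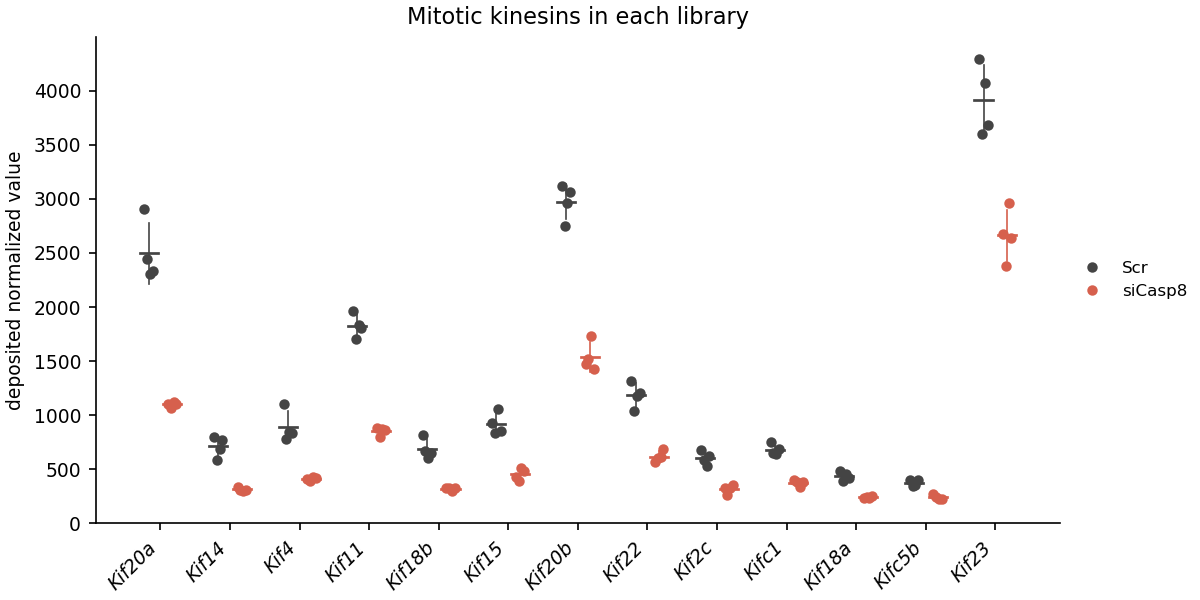
Deposited normalized value of the 13 tested mitotic kinesins in each library, with points for libraries, bars for the group mean and lines for ± 1 SD (n = 4 each). In every gene the 4 siCasp8 points lie below the 4 Scr points, and Kif23 keeps the largest share of its Scr level, 68.0%.

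Libraries within a group were not all alike. Scr replicate 1 was the highest Scr library in 12 of the 13 mitotic kinesins, with a median deviation of 0.15 on the log2 scale from the Scr mean, and Kif15 was the exception. The proliferation marker Mki67 showed the same order at the top, with 9392 in Scr replicate 1 against 7663, 7242 and 8059 in the other Scr libraries and 3358 to 3800 in siCasp8. Without Scr replicate 1, all 13 were still called lower, and their median log2 fold change was -0.93. Every siCasp8 library had a greater estimated depth than 3 of the 4 Scr libraries, and with depth as a covariate all 13 were called lower with a median of -0.99 and adjusted p values up to 0.0105, in Kif23.

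Transcripts of proteins that work with the mitotic motors were lower with those of the motors. Of 18 partner genes, 17 were called lower, 0 higher and 1 was not called, beside 20.8% of all genes tested that were lower, and the median log2 fold change was -1.05. The partner list was chosen with earlier results of these data known, so the count is a description and not a separate test. The 3 with the smallest adjusted p were Tpx2, which recruits Kif11 and Kif15 to spindle microtubules, at -1.15 (SE 0.0524), the microtubule bundler Nusap1 at -1.15 (SE 0.0650) and Incenp, the scaffold of the Aurora B complex, at -0.71 (SE 0.0440). Cenpe, a kinetochore kinesin (kinesin-7 family) whose symbol falls outside the Kif naming rule, was 2077, 1632, 1821 and 1821 in Scr and 1075, 896, 971 and 843 in siCasp8. Its log2 fold change of -0.96 (SE 0.0833, adjusted p = 2.47e-06) was within the range of the 13. Among partners picked after their values were seen for a known direct contact, Racgap1, the other subunit of centralspindlin beside Kif23, changed by -0.82 (SE 0.0601) against -0.56 for Kif23. Prc1, which binds Kif4, changed by -1.08 (SE 0.0734), and Cit, the citron kinase that binds Kif14, by -1.04 (SE 0.161). The partner not called was Mapre1 (EB1), a plus-end protein that serves microtubules at every stage of the cell cycle, which was 6994 to 7667 in Scr and 7188 to 7978 in siCasp8. Kifbp, which binds several kinesin motor domains, showed the smallest fall of the 17, at -0.25 (SE 0.0448, adjusted p = 0.000842).

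Among transport kinesins, the conventional kinesin heavy chain moved most. Kif5b (kinesin-1 family), the ubiquitous motor for mitochondria, lysosomes and many vesicles, was 16817, 16186, 16422 and 15806 in Scr and 11650, 12054, 12756 and 11848 in siCasp8. The siCasp8 libraries held 74.1% of the Scr mean without overlap, with a log2 fold change of -0.43 (SE 0.0364, adjusted p = 1.84e-06). The other heavy chains were not called: Kif5c was 746 to 831 in Scr and 730 to 833 in siCasp8 (adjusted p = 0.800), and Kif5a, mainly neuronal, was 31.4 to 76.5 in Scr and 33.3 to 49.3 in siCasp8 (adjusted p = 0.301). The 95% interval of the log2 fold change ran from -0.16 to 0.12 for Kif5c and from -0.92 to 0.21 for Kif5a, so that of Kif5a does not separate a fall as large as in Kif5b from none.

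The kinesin-3 family, motors of synaptic vesicle precursors, endosomes and other membranes, was split. Kif1b, which carries mitochondria and vesicle precursors, was 7559, 7511, 6982 and 7367 in Scr and 5970, 5916, 6231 and 6132 in siCasp8. That is 82.4% of the Scr mean, with no overlap (log2 fold change -0.28, SE 0.0361, adjusted p = 6.46e-05). Kif13b, which carries Dlg1 and related cargo to the plasma membrane, was 1456, 1232, 1222 and 1327 in Scr and 1727, 1655, 1535 and 1773 in siCasp8. Every siCasp8 library was above every Scr library, with a log2 fold change of 0.35 (SE 0.0650, adjusted p = 0.000904). Kif13a, a motor of recycling endosomes, was 2130, 2357, 2106 and 2269 in Scr and 2449, 2674, 2533 and 2555 in siCasp8. Kif16b, which moves early endosomes, was 2741, 2752, 2869 and 2561 in Scr and 3157, 3021, 3255 and 2908 in siCasp8. Both endosome motors were higher without overlap, by 0.21 (SE 0.0472, adjusted p = 0.00410) for Kif13a and 0.18 (SE 0.0475, adjusted p = 0.0107) for Kif16b. With estimated depth as a covariate the call of Kif13a was lost (adjusted p = 0.117). Kif1c, a Golgi and integrin motor, was not called, at 14141 to 16224 in Scr and 14305 to 15076 in siCasp8 (adjusted p = 0.322, interval -0.14 to 0.04).

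Kinesin-2 motors, which drive intraflagellar transport into cilia as well as vesicle transport, changed little. Kif3c was 2817, 2914, 2606 and 2917 in Scr and 2563, 2223, 2267 and 2511 in siCasp8, which is 85.0% of the Scr mean (log2 fold change -0.24, SE 0.0562, adjusted p = 0.00506). The call was lost under upper quartile rescaling (adjusted p = 0.0912) and with depth as a covariate (adjusted p = 0.105), and 35.0% of its 31-base words are shared with the opposite-strand gene 1110002L01Rik. Kif3b was 3453, 3456, 3355 and 3369 in Scr and 3199, 3203, 3180 and 3136 in siCasp8. This was a separation of the groups by a change of -0.10 (SE 0.0332, adjusted p = 0.0299), and upper quartile rescaling took it to 0.00053. Its adjusted p was 0.132 under quantile normalization and 0.393 with depth as a covariate. Leaving out Scr replicate 1 or 2 or any 1 siCasp8 library moved the adjusted p of Kif3b to between 0.0559 and 0.0761. Kif3a, the partner of Kif3b in the heterotrimeric motor, was 2830 to 3201 in Scr and 3188 to 3324 in siCasp8 and was not called (adjusted p = 0.0893), though it was called higher under upper quartile rescaling (0.20, adjusted p = 0.00916), under quantile normalization (0.14, adjusted p = 0.0316) and without Scr replicate 3 (adjusted p = 0.0312). Kif17, a homodimeric motor best known in neurons, was low, at 7.58 to 19.7 in Scr and 13.4 to 24.7 in siCasp8, and was not called.

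The 2 minus-end directed transport kinesins (kinesin-14 family) had borderline values. Kifc2 was 504, 491, 569 and 545 in Scr and 624, 677, 571 and 597 in siCasp8, with siCasp8 replicate 3 only just above the highest Scr library. Its log2 fold change was 0.23 (SE 0.0740, adjusted p = 0.0277), and the adjusted p rose to between 0.0648 and 0.0947 without Scr replicate 1, Scr replicate 2, siCasp8 replicate 1 or siCasp8 replicate 2. With depth as a covariate the change of Kifc2 was 0.11 and the adjusted p 0.544. Kifc3, which acts at adherens junctions and the Golgi, was 9812 to 11502 in Scr and 9335 to 10736 in siCasp8, with overlap, and was not called (log2 fold change -0.13, SE 0.0536, adjusted p = 0.0705). It was called without Scr replicate 3 (adjusted p = 0.00838) or without siCasp8 replicate 4 (adjusted p = 0.0248).

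**Figure D4:**
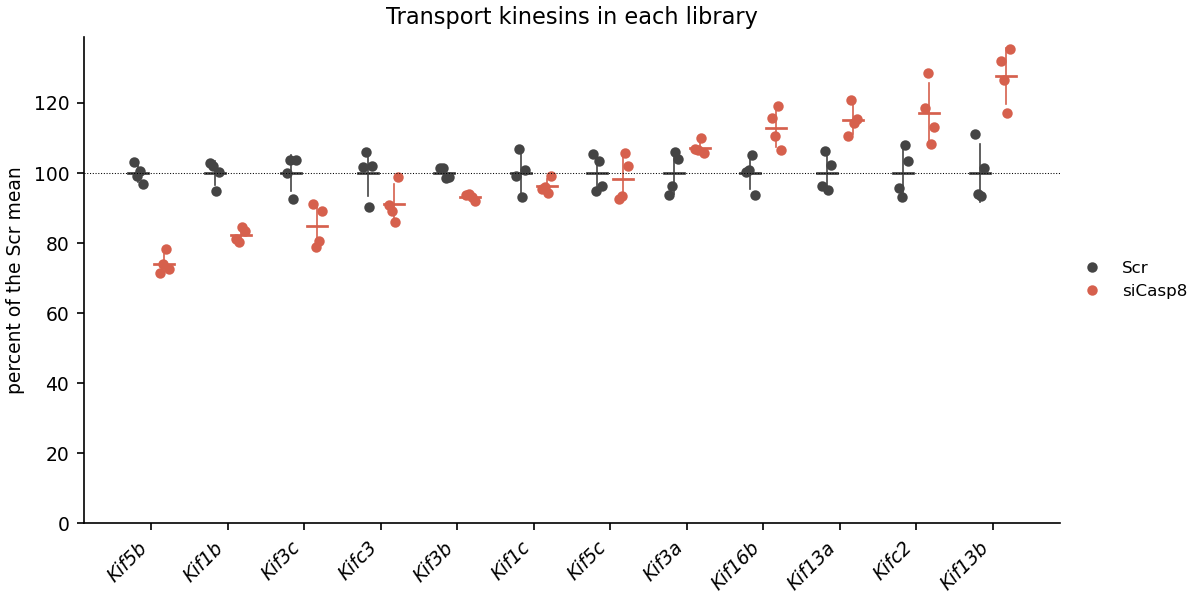
Transport kinesins with a mean over all libraries of at least 100, shown in each library as a percent of the gene's Scr mean, with bars for the group mean and lines for ± 1 SD (n = 4 each). Kif5b is lowest at 74.1% and Kif13b highest at 128%, and the other genes lie on both sides of 100%.

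Transport subunits and adaptors were called about as often as genes in general. Of the 24 genes of that list 23 were tested, with 5 lower, 5 higher and 13 not called, beside 20.8% lower and 19.4% higher among all genes tested, and the median log2 fold change was -0.05. The mitochondrial adaptor Trak2, which links Kif5 motors to Miro on the outer membrane, was 6237, 6536, 6541 and 6621 in Scr and 4593, 4401, 4529 and 4495 in siCasp8. That change of -0.53 (SE 0.0336, adjusted p = 2.36e-07) was the largest called in the list in either direction, and Trak2 kept 69.5% of its Scr mean beside 74.1% for Kif5b. Map7d1, which recruits kinesin-1 to microtubules, was at -0.21 (SE 0.0414) and the adaptor Fez2 at -0.13 (SE 0.0386). Kinesin light chains went different ways. Klc1 was lower at -0.36 (SE 0.104, adjusted p = 0.0167) although its groups overlapped, with 2423 to 3516 in Scr and 2087 to 2651 in siCasp8. Klc4 was higher at 0.32 (SE 0.0657, adjusted p = 0.00204), with 1181 to 1461 in Scr and 1541 to 1684 in siCasp8. Klc2 (-0.09, SE 0.0481) and Kifap3 (-0.02, SE 0.0366), the accessory subunit of the Kif3 motor, were not called. Klc3 was low and higher in siCasp8 without overlap, at 86.1 to 119 in Scr and 126 to 146 in siCasp8 (0.43, SE 0.126, adjusted p = 0.0173), the largest rise called in the list. Higher adaptors were Spag9 (JIP4), a lysosome adaptor, at 0.13 (SE 0.0330), Madd, which links Kif1b to vesicle cargo, at 0.21 (SE 0.0614), and Kidins220, a Kif5 cargo scaffold, at 0.20 (SE 0.0561). The groups overlapped in Kidins220 but not in Spag9 or Madd. The remaining lower gene was the adaptor Mapk8ip1 (JIP1), at -0.16 (SE 0.0558).

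Cytoplasmic dynein, the motor that moves the opposite way along microtubules, gave a comparison list that no kinesin belongs to. Of 22 tested genes of dynein, dynactin and their regulators, 4 were lower, 2 higher and 16 not called, which is no larger a share than the 20.8% lower and 19.4% higher of all genes tested. The median log2 fold change was -0.00037 and the most negative -0.30. The lower members with the smallest adjusted p were Nde1, which acts with Lis1 at kinetochores and centrosomes, at -0.24 (SE 0.0429), the light chain Dynll1 at -0.21 (SE 0.0435) and the cargo adaptor Bicd1 at -0.30 (SE 0.0639). The higher ones were the light chain Dynlt3 at 0.35 (SE 0.0574) and the dynactin subunit Dctn1 at 0.12 (SE 0.0360).

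Of the 17 kinesins in neither class, 10 were tested, and 2 were lower, 1 higher and 7 not called, again no larger a share than among all genes tested (20.8% lower, 19.4% higher). Kif24, which works at centrioles to hold back cilia in cycling cells, was 321, 347, 324 and 370 in Scr and 293, 248, 257 and 247 in siCasp8. It fell without overlap by 0.38 on the log2 scale (SE 0.0871, adjusted p = 0.00388), and with depth as a covariate the adjusted p was 0.0505. Kif7, the ciliary regulator of Hedgehog signalling, was 375, 381, 360 and 389 in Scr and 311, 287, 304 and 321 in siCasp8. Its change was -0.30 (SE 0.0720, adjusted p = 0.00543), not called under upper quartile rescaling (adjusted p = 0.0559) or with depth as a covariate (adjusted p = 0.0839). Of the 31-base words of Kif7, 17.3% are shared with 9330171B17Rik.

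Kif21b, a motor that pauses microtubule growth, was 157, 186, 155 and 171 in Scr and 204, 190, 209 and 250 in siCasp8. It was higher by 0.34 (SE 0.110, adjusted p = 0.0259), but the adjusted p was 0.0594 without Scr replicate 1, 0.0581 without Scr replicate 3 and 0.0857 without siCasp8 replicate 4. It was 0.0570 under quantile normalization and 0.224 with depth as a covariate. Kif6, of the ciliary kinesin-9 family, was 30.0 to 36.3 in Scr and 14.4 to 28.8 in siCasp8, without overlap but not called (adjusted p = 0.0842), though it was under quantile normalization (adjusted p = 0.0392). The 6 others not called were Kif2a, Kif9, Kif12, Kif21a, Kif26b and Kif28. Kif12, a kinesin of kidney and bile duct epithelium, was 3353 to 3678 in Scr and 3161 to 3555 in siCasp8. Kif2a, a depolymerase used in neurons and at spindle poles, was placed outside the mitotic class because of that dual role, and it was 3471 to 3625 in Scr and 3277 to 3512 in siCasp8 (log2 fold change -0.07, SE 0.0374, adjusted p = 0.145). Placing it with the mitotic kinesins would make 13 of 14 lower.

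Levels were divided by the length of the longest coding transcript in GENCODE M21, to set genes roughly beside each other. Which transcripts gave the signal is not known, and a gene read mainly from shorter ones would come out too low. Ranks between genes and shares of classes are therefore rough. On that scale, summed values of this kind having been added after the data were seen, the mitotic share of the kinesin signal was 24.0% ± 1.40 in the Scr libraries, and 15.7% ± 0.590 was found in siCasp8 (SD, n = 4 per group). The 2 groups did not overlap, with 22.3% to 25.6% in Scr and 15.0% to 16.4% in siCasp8. The summed level per kb of mitotic kinesins was 4734 ± 364 in Scr and 2572 ± 107 in siCasp8, and that of transport kinesins was 12065 ± 330 and 11008 ± 173. Transport kinesins thus gave 61.1% ± 1.52 of the kinesin signal in Scr and 67.2% ± 0.309 in siCasp8. Shares of 1 total are tied to each other, so a lower mitotic share raises the others.

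**Figure D5:**
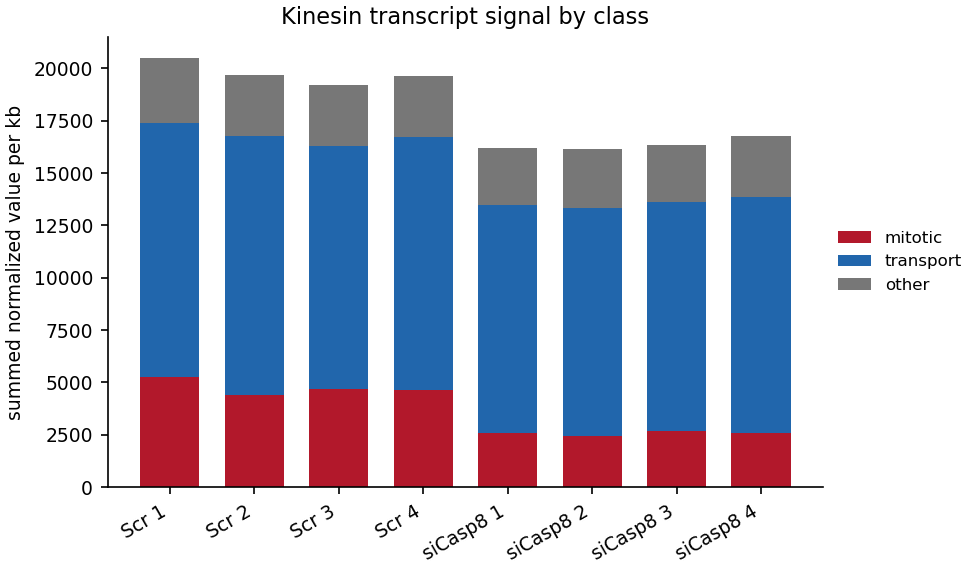
Summed normalized value per kb of transcript in each library, stacked by kinesin class. The mitotic part is 4391 to 5248 in the Scr libraries and 2428 to 2686 in the siCasp8 libraries, and the transport part is 11610 to 12398 in Scr and 10915 to 11267 in siCasp8.

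The order of levels per kb put Kifc3 first in Scr with 3207 ± 214, then Kif5b with 2704 ± 70.2 and Kif1c with 2272 ± 128. In siCasp8 Kifc3 led with 2927 ± 176, and Kif1c with 2186 ± 49.4 and Kif5b with 2002 ± 79.9 had changed places. Kif12 came next in both groups, at 1541 ± 63.5 and 1477 ± 81.3. Kif23 was the highest mitotic kinesin in both groups, at 1151 ± 96.2 in Scr and 783 ± 70.3 in siCasp8. Kif20a went from rank 8 of the kinesins in Scr, with 680 ± 76.4, to rank 14 in siCasp8, with 299 ± 6.25. In Scr, Kif20a and Kif2a (672 ± 13.2) did not differ beyond their spread.

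Ratios between close relatives within a library were also compared. This comparison was added after the values were seen and was first run over the 12 pairs whose symbols share a stem, where 6 pairs had ratios that did not overlap between the groups. Each of the 6 had the smallest exact two-sided permutation p that 70 arrangements allow, 0.0286, and an adjusted p of 0.0571 over the 12. The set was then widened to 15 pairs with 3 more from the same mitotic families, after the first result was known, and over the 15 the adjusted p of 9 such pairs was 0.0476. Since the side of 0.05 turns on that widening, no pair is called here, and the sizes are given as a description. The share of ratios without overlap among gene pairs in general was not computed. Among single genes tested, 19.5% were lower and 18% higher without overlap. The log2 ratio of Kif2a to Kif2c was higher in siCasp8 by 0.85 (SE 0.127), that of Kif5b to Kif5c changed by -0.41 (SE 0.0411) and that of Kif1b to Kif1c changed by -0.22 (SE 0.0348). The ratio of Kif3a to Kif3b changed by 0.20 (SE 0.0556), that of Kif3a to Kif3c by 0.34 (SE 0.0917) and that of Kif21a to Kif21b by -0.46 (SE 0.132). Among the cytokinesis motors, the ratio of Kif20a to Kif23 changed by -0.62 (SE 0.0792) and that of Kif20b to Kif23 by -0.40 (SE 0.0709). The ratios of Kif18a to Kif18b (0.25, SE 0.0890) and of Kif13a to Kif13b (-0.15, SE 0.0972) overlapped between the groups.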

How the data were processed

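Poly-A RNA of 8 AML12 cultures was sequenced, 4 per group, and each library was placed in its group by its title. The authors deposited 1 table of a normalized signal per gene symbol. Per the submitters' processing notes, the tools were kallisto 0.44.0, bcl2fastq 2.19, DESeq2 and sleuth and the builds GRCm38 and GRCh38, with no role given for any. The sources used here do not give how transcripts were summed to genes or whether strand was used. A row without a symbol, 0.0481% to 0.0631% of each library's signal, was left out. The deposited signal sums to a like total in each library, so depth was estimated from the most frequent low value, taken as 1 read. Of the values up to 20.5 reads, 65.6% to 75.0% came within 0.1 read of a whole number, so reads could not be recovered and no count test was run.

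From these values, log2(value + 1) was tested with limma 3.58.1 in R 4.3.3, two-sided, without covariates and with a trended prior variance. The fit covered all genes with a mean of at least 10, with Benjamini-Hochberg adjustment over them and a threshold of 0.05. On this scale, changes of genes with low values come out too small. Ratios between close relatives and the sum of Kifc1 and Kifc5b were tested by exact two-sided permutation over libraries. The fit was tested on simulated data. P-values measure the spread between these cultures.

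The kinesin genes and the lists of partners were chosen with earlier results of these data known. Named were all kinesins, and from each partner list the 3 called genes per direction with the smallest adjusted p, plus Cenpe, Klc1, Klc2, Klc4 and Kifap3. Racgap1, Prc1, Cit, Mapre1, Kifbp, Klc3, Madd and Mapk8ip1 fall outside that rule and were added after their values were seen. The class of each kinesin was set by hand from textbook role. Lists for hepatocyte, cholangiocyte, stellate, macrophage and endothelial markers were also counted. Stellate markers were 1 higher and 1 lower of 2 tested, macrophage markers 0 higher and 1 lower of 3, endothelial markers 0 of 1, and cholangiocyte markers 2 higher and 2 lower of 5. Transcript lengths and words of 31 bases came from GENCODE M21, which matched 45 of 46 kinesins, and promoters from RefSeq (GRCm38.p6). Alternatives covered normalization, pseudocount, filter, depth, the replicate number as a block, the prior trend and leaving out each library.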

Additional observations from a re-analysis of the deposited data

Results flagged for a closer look

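Kif14 in siCasp8 replicate 1 was 340, against 308 in the nearest of the other 3 siCasp8 libraries. The gap to the nearest library, divided by the range of the group, was 0.874, above Dixon's 95% critical value for 4 libraries. It was the only one of 74 groups of 4 (37 genes in 2 groups) to pass, where chance passes about 1 in 20, and the value lay below every Scr library.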

How the results depend on the processing

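All 13 mitotic kinesins stayed called lower under all 18 alternatives, with 0 higher. The median over them was -1.01 to -0.93 when single libraries were left out. Of the 8 transport calls, 4 (Kif5b, Kif1b, Kif16b and Kif13b) were kept in all 18, and of the 3 calls among other kinesins 0 were. Under upper quartile rescaling, which moved the median of all genes to 0.10, lower calls were 2 for transport, 1 for other kinesins and 1665 for all genes, higher calls for all genes were 4475, and the transport median was 0.061. With depth as a covariate, transport had 2 lower and 2 higher, other kinesins 0 and 0, and all genes 2795 calls, 1492 lower and 1303 higher. Higher calls of other kinesins were 0 under quantile normalization, 2 with no filter, and 0 to 1 when single libraries were left out. Signs changed in genes that were not called, and in Kif3b: under upper quartile rescaling Kif3b was 0.00053, Kif1c 0.046, Kif5c 0.077, Kif2a 0.028 and Kif12 0.039, under quantile normalization Kif1c was 0.032 and Kif28 -0.13, and with depth Kif5a was 0.29, Kif5c 0.00085 and Kif26b -0.028. When single libraries were left out, Kif5c ran from -0.059 to 0.00400, Kif28 from -0.17 to 0.20 and Kif9 from -0.026 to 0.10. The cause of these changes was not tested. Same-numbered libraries had correlated deviations of 0.078, 0.044, 0.169 and 0.055, too low to pair them, although every library correlated best with its own number, a hint from the data and not the design. With the replicate block 6020 genes were called and transport had 5 lower and 3 higher, with Kifc3 gained (adjusted p = 0.0198) and Kifc2 lost (adjusted p = 0.0514), and mitotic calls stayed at 13. Depth limits the low genes: Kif5a, Kif17, Kif28 and Kif26b had SE values from 0.259 to 0.342.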
